A study of Saccharomyces cerevisiae with 15 samples.

Results

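The 10 genes described here encode antioxidant enzymes of budding yeast: the catalase gene CTT1 (YGR088W), the superoxide dismutase genes SOD1 (YJR104C) and SOD2 (YHR008C), the peroxidase genes TSA1 (YML028W), PRX1 (YBL064C), AHP1 (YLR109W), GPX1 (YKL026C) and CCP1 (YKR066C), the glutaredoxin gene GRX2 (YDR513W) and the thioredoxin gene TRX2 (YGR209C). They were picked by name from the 5703 genes analysed, for the function of their products. All 10 passed the filters on low counts, with a limit for GPX1 given below. They were followed in libraries from YWG25, a Sigma1278b strain, a background known for filamentous growth. Growth was in YPD, a rich glucose medium, at 30 °C until the optical density reached 0.7, and cells were sampled after glucose had been taken away (-GLU) or with glucose present (+GLU). Ribosome footprints, pieces of mRNA some 28 nt long that translating ribosomes protect from nuclease, were sequenced beside poly(A) RNA, with 3 libraries for each assay and glucose state. All 12 of these carried cycloheximide at 100 µg/ml, which stops ribosomes during elongation. A further 3 single footprint libraries are titled as made without the drug: 1 without glucose, 1 without glucose after a fast harvest, and 1 with glucose after a fast harvest. The duration of glucose absence is not given in the sources used here. Judged by its title, the series concerns gene-by-gene adaptation of translation under protein kinase A, which signals glucose.

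Respiring cells leak superoxide from the mitochondrial electron transport chain. Superoxide dismutases turn it into hydrogen peroxide, and catalases and peroxidases remove the peroxide. Peroxiredoxins and glutathione peroxidases pass their electrons on from thioredoxin and glutathione, which are reduced again at the expense of NADPH. In yeast, glucose represses respiration, and protein kinase A holds back Msn2 and Msn4, transcription factors of the general stress response, while Yap1 answers to peroxide.

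The 12 libraries with cycloheximide held 2391712 to 12560502 counts and the 3 without it 1610986 to 30575562. The glucose labels were checked with 3 genes known to be repressed by glucose, FBP1, ICL1 and SUC2, and all 3 were higher in -GLU in RNA and in footprints. The third -GLU replicate stood apart in both assays. Its Spearman correlation across genes with the other -GLU replicates was 0.89 and 0.91 in RNA and 0.84 and 0.86 in footprints, against 0.97 and 0.96 between replicates 1 and 2. The RNA of FBP1, of gluconeogenesis, measured 3975, 2421 and 129 normalised counts per 1000000 (CPM) in -GLU replicates 1, 2 and 3. For that reason values without replicate 3 stand beside the results that rest on it. RNA was selected on cellulose in all -GLU libraries and in +GLU replicate 1, but on DynaBeads in +GLU replicates 2 and 3. Values from the 4 cellulose libraries alone are therefore given as well. In them the single +GLU library is assumed to vary like the -GLU ones, and the DynaBeads libraries, all +GLU, give no value of their own. That +GLU library, replicate 1, had Spearman correlations of 0.92 and 0.94 with +GLU RNA replicates 2 and 3, against 0.98 between those. It was also counted over a longer region, so selection cannot be told apart from other traits of that library.

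The regions upstream of the coding sequences were searched for short motifs. In the 500 nt before the start codon in the R64 reference, which is the S288C strain and not the one sequenced here, AGGGG or its complement CCCCT was found for 10 of 10 genes, against 34.5% of 5692 gene windows. This motif is the stress response element bound by Msn2 and Msn4. The Yap1 motif TTACTAA or its complement TTAGTAA was found for 5 of 10 genes, against 12% of windows, and TGACTAA or TTAGTCA for 1 of 10, against 6.11%. Shown are the stretches around the sites of the genes that the results turn on, 5′ to 3′ on the gene's own strand, with the motif in capitals and R64 positions. The first 5 hold the stress element and the last 4 a Yap1 motif.
CTT1, 378 nt upstream, chrVII:654246-654270, plus strand: ctctttttcaAGGGGatcaccggta
CTT1, 363 nt upstream, chrVII:654261-654285, plus strand: atcaccggtaAGGGGccaagcggtg
PRX1, 116 nt upstream, chrII:101258-101282, minus strand: taaagaaacaAGGGGccggatgttg
GPX1, 248 nt upstream, chrXI:390117-390141, minus strand: tatttgctttCCCCTtctgttccct
TSA1, 53 nt upstream, chrXIII:220075-220099, plus strand: aacgggccttCCCCTcgttcaattg
SOD1, 149 nt upstream, chrX:623147-623173, minus strand: tgtgtcggaaTTAGTAAgcggacatcc
SOD2, 266 nt upstream, chrVIII:123840-123866, minus strand: gttgagctgaTTACTAAttgctattat
GRX2, 144 nt upstream, chrIV:1470863-1470889, plus strand: agcagaactaTTACTAAgatccgatat
TRX2, 181 nt upstream, chrVII:913392-913418, minus strand: ggctcttttcTTACTAAgcgcgttcag
The 2 stretches of CTT1 share bases, because its sites lie 15 nt apart. CTT1 and AHP1 had 3 stress elements each, GPX1, GRX2 and TSA1 had 2 each, and the other 5 genes had 1 each. TRX2 had 2 TTACTAA sites, and AHP1 was the fifth gene with that motif. Among all windows, 8.42% held 2 or more stress elements and 0.984% held 2 or more TTACTAA sites. GPX1 alone held TGACTAA. TSA1, with 2 stress elements, is the gene whose RNA and footprints did not pass the test below. Since all 10 genes held a stress element, a match could not separate it from the genes that rose. Neither Yap1 motif was found for TSA1, CTT1, PRX1 or CCP1. A match of these letters describes the window and is no evidence of binding.

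Without glucose, RNA rose for 7 of the 10 genes and fell for 0, by edgeR's quasi-likelihood test at an adjusted p under 0.05. Across all 5519 genes tested, 30.4% rose, 30.2% fell and 60.6% did either. In footprints 9 of 10 rose and 0 fell, against 33.8% of 5319 genes that rose, 31.0% that fell and 64.8% that did either. The median log2 change of the 10 genes was 2.05 in RNA and 1.75 in footprints, beside 0.01 and 0.10 for all genes tested. The lowest -GLU library lay above the highest +GLU library for 8 of 10 genes in RNA (34.5% of all genes) and for 8 of 10 in footprints (36.7%). All 10 genes together took 0.477% to 0.818% of RNA counts in -GLU libraries, against 0.194% to 0.253% in +GLU libraries, and 0.942% to 1.47% of footprint counts in -GLU, against 0.333% to 0.419% in +GLU. These values are relative to all counted mRNA, and a change in every cell cannot be told apart from a change in some of the cells. Without -GLU replicate 3, the same 7 genes were called in RNA and 8 of the 9 in footprints, AHP1 being lost. In the 4 cellulose libraries 4 genes were called in RNA, SOD2, PRX1, GPX1 and CCP1, with 10 of 10 changes positive. There the number called among all genes was 1764, against 3343 with all 6 libraries.

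**Figure D1:**
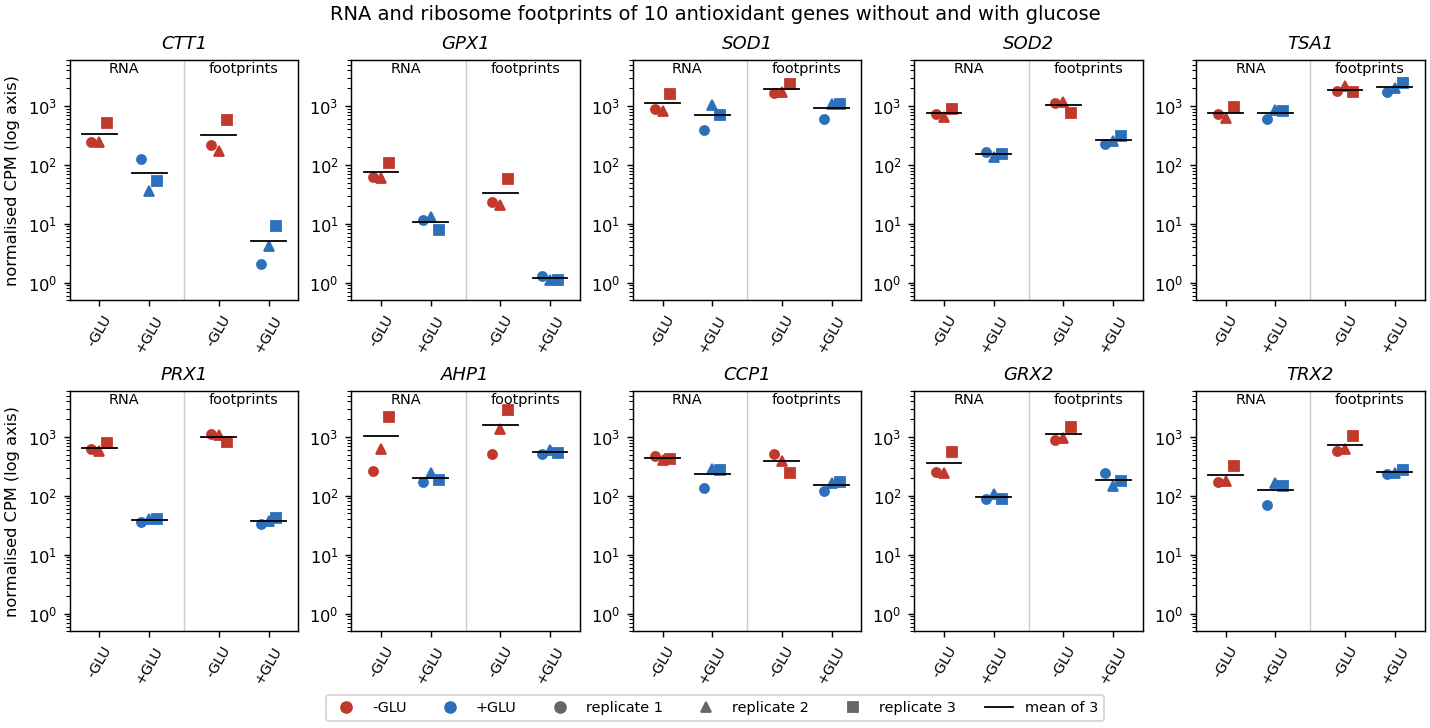
RNA (left of each panel) and footprints (right) of the 10 genes in normalised CPM on a log axis, with -GLU libraries in red and +GLU libraries in blue, 1 point per library and a line at the mean of 3. The largest fitted change is that of CTT1 footprints, at 173 to 568 CPM in -GLU and 2.11 to 9.23 CPM in +GLU, while TSA1 points overlap in both assays.

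CTT1 encodes catalase T, the cytosolic catalase, and showed the largest footprint change of the 10 genes. Its footprints were at 219, 173 and 568 CPM in the -GLU libraries, against 2.11, 4.14 and 9.23 CPM in the +GLU libraries. The 3 +GLU footprint libraries together held 88 counts of it, which limits the precision of the low end. The log2 change was 5.92 ± 0.71 (SE, edgeR adjusted p = 2.85e-04), or 5.20 without -GLU replicate 3. CTT1 RNA changed less. It was at 243, 242 and 518 CPM in -GLU and 125, 36.3 and 52.5 CPM in +GLU, a log2 change of 2.20 ± 0.49 (edgeR adjusted p = 0.00384). The groups did not overlap in either assay. The highest +GLU RNA value was that of replicate 1, the only +GLU library from cellulose, and against it alone the change was 1.45 ± 0.60 (edgeR adjusted p = 0.119), so that the call was lost. CTA1, the peroxisomal catalase, had larger changes in both assays. Its RNA was at 1743, 1507 and 1737 CPM in -GLU, against 12.4, 16.1 and 15.5 CPM in +GLU, and its footprints at 2252, 1964 and 2022 CPM in -GLU, against 0.528, 0.276 and 1.29 CPM in +GLU. In +GLU footprint replicates 1 and 2 it lay under the level of 3 counts, which is 0.721 and 0.346 CPM of total counts. The size of its footprint change and its +GLU footprint ratio below are therefore imprecise. The log2 ratio of CTA1 to CTT1 counts within a library averaged 2.41 ± 0.58 in -GLU RNA, against -2.08 ± 1.12 in +GLU RNA, and 2.90 ± 0.93 in -GLU footprints, against -2.71 ± 0.92 in +GLU footprints (SD, n = 3 each). CTA1 had more counts than CTT1 in every -GLU library, and CTT1 more than CTA1 in every +GLU library.

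GPX1 encodes a glutathione peroxidase that acts on phospholipid hydroperoxides, and its pattern was most like that of CTT1 among the 10. Over the 12 libraries the log2 CPM of the pair had a Pearson r of 0.95, a description only, since the libraries share the glucose states. GPX1 RNA was at 62.4, 59.0 and 107 CPM in -GLU, against 11.4, 12.9 and 7.76 CPM in +GLU, a log2 change of 2.82 ± 0.33 (edgeR adjusted p = 1.28e-04). The value from cellulose libraries was 2.78 ± 0.51, also called. Its footprints were at 23.0, 20.6 and 57.9 CPM in -GLU, against 1.32, 1.10 and 1.11 CPM in +GLU. Those +GLU values rest on 19 counts in all, at 5, 8 and 6 counts per library, each under the minimum count of 10. GPX1 thus passed the filter of the footprint fit only through its -GLU libraries. The footprint change was 4.82 ± 0.54 (edgeR adjusted p = 1.99e-04), or 4.21 ± 0.30 without -GLU replicate 3, and neither assay showed an overlap. GPX2, a related peroxidase, went the other way in RNA, at -1.11 ± 0.25 (edgeR adjusted p = 0.00413), and HYR1, the peroxidase that passes the peroxide signal to Yap1, rose by 1.53 ± 0.36 in RNA and 1.79 ± 0.21 in footprints. GPX2 footprints were at 1.13, 3.91 and 7.44 CPM in -GLU and 5.02, 5.52 and 6.46 CPM in +GLU, which did not pass. Within libraries, the log2 ratio of GPX2 to GPX1 averaged -1.97 ± 0.51 in -GLU RNA, against 1.92 ± 0.58 in +GLU RNA (SD, n = 3 each), so the order of this pair differed between the states. The ratio of HYR1 to GPX1 was positive in all 12 libraries and lower in -GLU, by 1.25 in RNA and by 2.79 in footprints.

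Of the superoxide dismutases, SOD2 rose in both assays, and SOD1 passed in footprints but not in RNA. SOD2, the manganese enzyme of the mitochondrial matrix, had RNA at 743, 652 and 886 CPM in -GLU, against 167, 135 and 154 CPM in +GLU. The groups lay far apart, with a log2 change of 2.32 ± 0.25 (edgeR adjusted p = 9.60e-05) and 2.23 ± 0.43 from cellulose libraries. SOD2 footprints were at 1135, 1172 and 772 CPM in -GLU, against 228, 257 and 310 CPM in +GLU, a change of 1.95 ± 0.27 (edgeR adjusted p = 5.29e-04). SOD1, the copper and zinc enzyme found mostly in the cytosol, had RNA at 904, 811 and 1613 CPM in -GLU, against 396, 1019 and 689 CPM in +GLU. Those groups overlapped, and the change of 0.66 ± 0.42 did not pass (edgeR adjusted p = 0.201). Its footprints, at 1659, 1706 and 2337 CPM in -GLU and 604, 1084 and 1082 CPM in +GLU, did not overlap and rose by 1.04 ± 0.33 (edgeR adjusted p = 0.0244). That call was lost when any 1 of the +GLU footprint libraries was left out. Against the +GLU cellulose library alone, the lowest of the 3 in RNA, the RNA change of SOD1 was 1.52, larger than its footprint change. The log2 ratio of SOD2 to SOD1 counts averaged -0.49 ± 0.33 in -GLU RNA, against -2.11 ± 0.83 in +GLU RNA, without overlap. In footprints it averaged -0.90 ± 0.61 in -GLU and -1.76 ± 0.34 in +GLU, and the groups overlapped.

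The peroxiredoxins, peroxidases that work through a reactive cysteine, ranged from the most changed RNA of the 10 to the least changed. PRX1, the mitochondrial member, had RNA at 628, 568 and 779 CPM in -GLU, against 35.5, 40.4 and 39.7 CPM in +GLU. This was the largest RNA change of the set, 4.10 ± 0.26 (edgeR adjusted p = 8.22e-06), with 4.25 ± 0.47 from cellulose libraries. PRX1 footprints were at 1120, 1065 and 812 CPM in -GLU, against 32.7, 36.7 and 42.3 CPM in +GLU, a change of 4.74 ± 0.27 (edgeR adjusted p = 2.29e-05). TSA1, the main cytosolic peroxiredoxin, had RNA at 730, 636 and 947 CPM in -GLU and 588, 857 and 810 CPM in +GLU. Its footprints were at 1776, 2178 and 1743 CPM in -GLU and 1691, 2038 and 2444 CPM in +GLU. Both overlapped, and neither the RNA change of 0.04 ± 0.29 (edgeR adjusted p = 0.923) nor the footprint change of -0.12 ± 0.28 (edgeR adjusted p = 0.731) passed. The sign of these small values turned with the scaling and the libraries used, from -0.28 to 0.43 in RNA and from -0.36 to 0.33 in footprints. The log2 ratio of PRX1 to TSA1 counts averaged -0.93 ± 0.24 in -GLU footprints, against -5.78 ± 0.08 in +GLU footprints, and -0.22 ± 0.06 in -GLU RNA, against -4.26 ± 0.19 in +GLU RNA (SD, n = 3 each). TSA2, the low-abundance relative of TSA1, rose by 1.28 ± 0.40 in RNA and by 4.19 ± 0.58 in footprints, with +GLU footprints at 1.85, 2.21 and 2.40 CPM. Its counts remained below those of TSA1 in all 12 libraries.

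AHP1 encodes a peroxiredoxin that favours alkyl hydroperoxides, and in -GLU its RNA varied most of the 10, with an SD of 1019.8 around a mean of 1024 CPM. The RNA values were 258, 633 and 2182 CPM in the -GLU libraries, against 174, 242 and 188 CPM in +GLU. The log2 change of 2.35 ± 0.67 passed (edgeR adjusted p = 0.0131), but it was 1.16 ± 0.35 without -GLU replicate 3 and 2.59 ± 1.39 among cellulose libraries (edgeR adjusted p = 0.198). It was also no longer called without +GLU RNA replicate 1 or 3. Its footprints were at 503, 1367 and 2832 CPM in -GLU, against 508, 596 and 524 CPM in +GLU. The lowest -GLU library thus fell just below all +GLU libraries with this scaling. In CPM of total counts it lay above them, at 564 against 436 to 498 CPM. The footprint change of 1.53 ± 0.56 (edgeR adjusted p = 0.0448) was called in 5 of 12 alternative settings. Without -GLU replicate 3 it was 0.78 ± 0.35 (edgeR adjusted p = 0.0709). In replicate 3, 9 of the 10 genes had more RNA than in both other -GLU replicates, CCP1 being between them, while in footprints 6 lay above both others, and SOD2, TSA1, PRX1 and CCP1 below both. The shares of all genes above or below both were not worked out. This replicate stood apart across genes, so these counts may describe the library and not the 10 genes.

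CCP1 encodes cytochrome c peroxidase, which removes hydrogen peroxide between the mitochondrial membranes with electrons from cytochrome c. Its RNA was at 471, 400 and 414 CPM in -GLU, against 137, 283 and 275 CPM in +GLU. The groups did not overlap, and the log2 change of 0.89 ± 0.30 passed (edgeR adjusted p = 0.0294), though not without -GLU RNA replicate 1 or 2. Against the +GLU cellulose library alone the change was 1.68 ± 0.32, that library being the lowest of the 3. CCP1 footprints were at 520, 391 and 244 CPM in -GLU, against 118, 162 and 173 CPM in +GLU, a change of 1.35 ± 0.32 (edgeR adjusted p = 0.00741). Its ratio to SOD1 within libraries overlapped between states in both assays.

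The electron carriers GRX2 and TRX2 rose more in footprints than in RNA by their point estimates with no library left out. That difference did not pass the test given further on. GRX2, a glutaredoxin of cytosol and mitochondria, had RNA at 258, 240 and 563 CPM in -GLU, against 89.5, 108 and 88.1 CPM in +GLU. That is a log2 change of 1.89 ± 0.35 (edgeR adjusted p = 0.0014), or 2.02 ± 0.66 among cellulose libraries, where the call was lost. Its footprints were at 881, 965 and 1482 CPM in -GLU, against 240, 148 and 176 CPM in +GLU, a change of 2.56 ± 0.32 (edgeR adjusted p = 3.44e-04). GRX2 overlaps EMI1, on the opposite strand, over 47 nt of coding sequence, and reads there may belong to either gene, since whether counting used strand is not given in the sources used here. TRX2, a cytosolic thioredoxin, had RNA at 170, 177 and 316 CPM in -GLU, against 68.9, 167 and 144 CPM in +GLU. The groups did not overlap, but the change of 0.81 ± 0.37 did not pass (edgeR adjusted p = 0.0846). TRX2 footprints were at 567, 614 and 1032 CPM in -GLU, against 233, 248 and 272 CPM in +GLU, and rose by 1.55 ± 0.29 (edgeR adjusted p = 0.00233). Against the +GLU cellulose library alone, the lowest of the 3, the RNA change of TRX2 was 1.72, larger than this footprint change. TRX1, the other cytosolic thioredoxin, had a log2 change of -1.20 ± 0.40 in RNA, which passed (edgeR adjusted p = 0.0279), and fell by 0.93 ± 0.24 in footprints. Its RNA groups overlapped, at 132, 97.6 and 208 CPM in -GLU and 168, 465 and 377 CPM in +GLU, and against the +GLU cellulose library alone the change was -0.17 ± 0.46 (edgeR adjusted p = 0.789), so that the RNA call was lost. The log2 ratio of TRX1 to TRX2 counts averaged -0.61 ± 0.24 in -GLU RNA, against 1.38 ± 0.09 in +GLU RNA, and -1.12 ± 0.21 in -GLU footprints, against 1.33 ± 0.02 in +GLU footprints (SD, n = 3 each). TRX2 therefore had more counts than TRX1 in every -GLU library and fewer in every +GLU library. GRX1, another dithiol glutaredoxin, rose by 1.80 ± 0.42 in RNA and by 1.99 ± 0.29 in footprints, and its ratio to GRX2 overlapped between states in RNA. Of 22 such ratios, from 11 pairs in 2 assays, 18 did not overlap between states. The share among other gene pairs was not worked out, so this count has no background to be read against. With 3 against 3 libraries the 2-sided exact permutation test cannot go below p = 0.1, and the lowest adjusted value was 0.122.

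**Figure D2:**
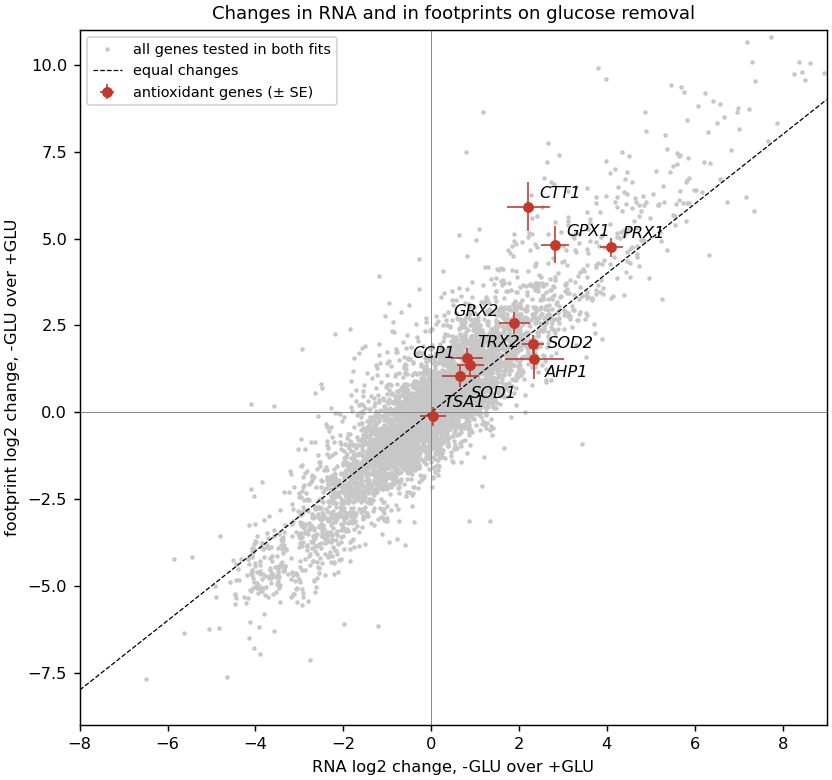
Footprint log2 change (vertical) against RNA log2 change (horizontal), both -GLU over +GLU, for all genes tested in both fits (grey) and the 10 antioxidant genes (red, bars of ± 1 SE), with a dashed line where both changes are equal. CTT1 (2.20 in RNA, 5.92 in footprints) and GPX1 (2.82 and 4.82) lie farthest above the line, TSA1 lies at the origin, and AHP1 lies below the line.

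Translational efficiency was compared as the footprint change minus the RNA change, tested in a single model over the 12 libraries. It rose without glucose for 2 of the 10 genes, CTT1 and GPX1, and fell for 0, against 9.24% of 5509 genes that rose, 4.48% that fell and 13.7% that did either. For CTT1 the log2 difference was 3.78 ± 0.86 (edgeR adjusted p = 0.0154), rank 62 from the top of all genes tested. It ran from 2.58 to 4.47 over 22 alternatives and was 3.06 ± 0.75 without -GLU footprint replicate 3, still called. From cellulose RNA alone it was 4.37 ± 0.97 (edgeR adjusted p = 0.0484). The call was lost without +GLU footprint replicate 2 (3.62, edgeR adjusted p = 0.0553) or -GLU RNA replicate 2 (3.38, edgeR adjusted p = 0.0592), over a range of adjusted p in all alternatives from 2.79e-04 to 0.0592. For GPX1 the difference was 2.08 ± 0.64 (edgeR adjusted p = 0.0478), which was called in 11 of 22 alternatives, with positive values of 1.46 to 2.38 in all of them. Without -GLU footprint replicate 3 it was 1.46 ± 0.48, and the call was lost. The other 8 genes did not pass. PRX1 (0.70), TRX2 (0.81), GRX2 (0.73), CCP1 (0.51) and SOD1 (0.44) had positive differences, and SOD2 (-0.32), TSA1 (-0.10) and AHP1 (-0.75) negative ones, all log2. The median over the 10 genes was 0.61, beside 0.13 for all genes. The split of calls among all genes moved with the scaling, from 67.3% higher with TMM factors to 84.9% with total counts and 53.8% with median-ratio size factors.

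Within each state, the log2 ratio of footprints to RNA, relative to the bulk of genes, was tested as well. Without glucose CTT1 (0.66 ± 0.57) and GPX1 (-0.46 ± 0.37) did not pass, and with glucose CTT1 (-3.12 ± 0.65, edgeR adjusted p = 0.00231) and GPX1 (-2.55 ± 0.51, edgeR adjusted p = 0.00182) were low. These put CTT1 at percentile 3.05 and GPX1 at percentile 4.61 of all genes with glucose. Both calls with glucose held in all 17 alternatives. The 17 alternatives for ratios within a state did not include RNA from cellulose libraries alone, so RNA selection was not checked for them. Without -GLU footprint replicate 3, GPX1 was called low in -GLU as well, at -1.09 ± 0.31 (edgeR adjusted p = 0.0127), and CTT1 was at -0.06 ± 0.52. The other genes were at or above 0 in both states, though with total counts CCP1 was at -0.030 in -GLU and -0.73 in +GLU, and PRX1 at -0.20 in +GLU. In -GLU, 6 of 10 were called high and 0 low, against 20.6% of all genes high, 17.6% low and 38.2% either way. They were TRX2 (2.46 ± 0.38), GRX2 (2.37 ± 0.36), TSA1 (2.01 ± 0.30), SOD1 (1.49 ± 0.41), PRX1 (1.32 ± 0.23) and SOD2 (1.15 ± 0.25). SOD1 was no longer called without -GLU RNA replicate 1 or 2, nor SOD2 with total counts, and the other 4 calls held in all 17 alternatives. In +GLU, 5 of 10 were called high and 2 low, against 19.6% high, 22.6% low and 42.2% either way. The high ones were TSA1 (2.11 ± 0.30), AHP1 (2.09 ± 0.69), TRX2 (1.65 ± 0.37), GRX2 (1.63 ± 0.36) and SOD2 (1.46 ± 0.25). AHP1 was called in 11 of 17 alternatives, being lost with total counts and without 1 of 5 +GLU libraries, and GRX2 was lost with total counts. AHP1 in -GLU (1.34 ± 0.67), SOD1 (1.06 ± 0.40) and PRX1 (0.61 ± 0.23) in +GLU, and CCP1 in either state (0.56 ± 0.32 in -GLU, 0.05 ± 0.32 in +GLU) did not pass. In +GLU, SOD1 was called in 10 and PRX1 in 9 of 17 alternatives. Same-numbered footprint and RNA libraries deviated together in -GLU, and with the replicate number as a block within each glucose state AHP1 in -GLU was called, at 1.53 (edgeR adjusted p = 3.13e-04). The coding length of TRX2, 315 nt, and of GRX2, 432 nt, were the shortest of the 10 and that of CTT1, 1689 nt, the longest, and the part of length in these ratios was not tested. With total counts as the scale, the median of all genes moved to -0.51 in -GLU and -0.86 in +GLU, so that 17.8% of the -GLU calls and 8.0% of the +GLU calls were high, against 54.0% and 46.4%.

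**Figure D3:**
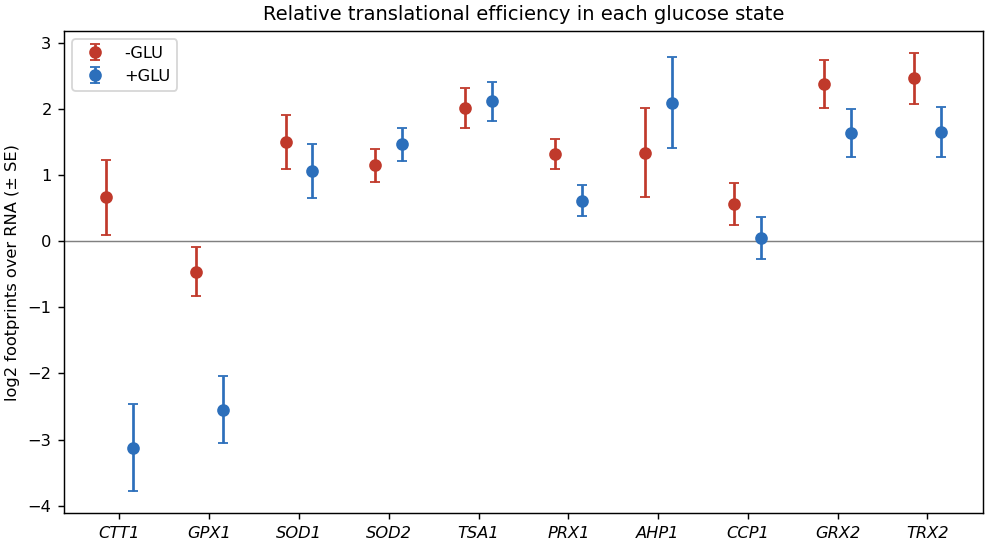
Log2 ratio of footprints to RNA of each gene, relative to the bulk of genes, in -GLU (red, left) and +GLU (blue, right), with bars of ± 1 SE. The bars of CTT1 and GPX1 lie well apart, with the +GLU points at -3.12 and -2.55, and TSA1 is near 2 in both states.

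The make-up of the set was compared as each gene's share of the summed level of the 10 genes, in counts per kilobase of coding length, which does not depend on the scaling between libraries. TSA1 held 17.9% ± 4.4 of the -GLU footprints, against 41.9% ± 2.0 of the +GLU footprints (SD, n = 3 each), and 14.1% ± 2.9 of the -GLU RNA, against 29.9% ± 2.8 of the +GLU RNA. It was the largest single share of footprints in every +GLU library with the drug. PRX1 held 7.22% ± 2.50 of -GLU footprints, against 0.574% ± 0.031 of +GLU footprints, and GRX2 13.7% ± 1.2 of -GLU footprints, against 5.46% ± 2.25 of +GLU footprints. SOD1 held 22.2% ± 1.5 of -GLU footprints and 23.6% ± 4.3 of +GLU footprints, and these groups overlapped. Of RNA it held 24.6% ± 1.6 in -GLU, against 33.7% ± 6.5 in +GLU, without overlap. AHP1 ranged from 6.29% to 23.4% in -GLU footprints and from 10.5% to 13.9% in +GLU footprints. CTT1, for all its change, held 0.971% ± 0.457 of -GLU footprints, against 0.035% ± 0.021 of +GLU footprints, and GPX1 0.346% ± 0.140, against 0.0290% ± 0.0079.

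**Figure D4:**
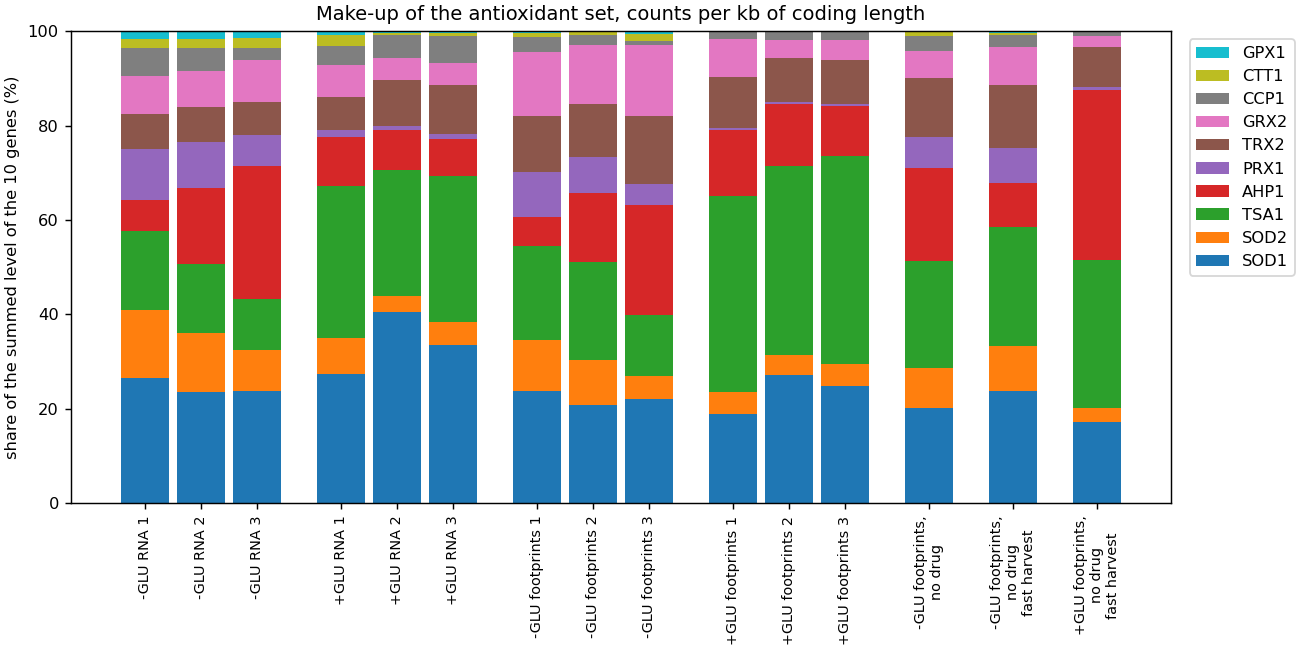
Share in percent of each gene in the summed length-scaled level of the 10 genes, 1 stacked bar per library, grouped by assay, glucose state and drug. TSA1 (green) takes 40.1% to 44.1% of the +GLU footprints with drug and 12.9% to 20.9% of the -GLU footprints, and AHP1 (red) takes 36.1% of the +GLU library without the drug.

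The libraries without cycloheximide gave the glucose comparison again, with 1 library a state and so with no replicate check. After the fast harvest, footprints of 8 of 10 genes were at least 2-fold higher in -GLU than in +GLU, against 32.3% of 5414 genes, and those of 1, AHP1, at least 2-fold lower, against 19.4%. In CPM of total counts, CTT1 was at 162 in -GLU and 3.66 in +GLU, a log2 ratio of 5.47. Its 95% interval, from an exact binomial interval for the split of its counts between both libraries, was 5.19 to 5.76. GPX1 was at 30.2 in -GLU and 0.752 in +GLU, a ratio of 5.33 (4.71 to 6.01). PRX1 was at 1036 in -GLU and 51.3 in +GLU, a ratio of 4.34 (4.26 to 4.41). The ratios of CTT1, GPX1 and PRX1 were again the highest of the 10. GRX2 (2.46), SOD2 (2.35), CCP1 (2.07), TRX2 (1.38) and SOD1 (1.16) followed, and TSA1 was at 0.38. Intervals cover counting error only. Scaling over all 15 libraries by TMM lowered every ratio by 0.50 and by median ratios by 0.35, and SOD1 then fell below 2-fold under both, TRX2 under TMM alone, and TSA1 was at -0.12 under TMM.

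AHP1 went against its change in the drug libraries. Without the drug it was at 902 CPM in -GLU and 2138 CPM in +GLU, a log2 ratio of -1.24 (-1.28 to -1.21), and -1.75 under TMM. With the drug, +GLU libraries had 463, 498 and 436 CPM of total counts, all far below the 2138 CPM of the +GLU library without it, a log2 ratio of -2.20 for the mean of 3 with drug over no drug. Only 1.45% of 5442 genes were at least 2-fold lower with the drug in +GLU, and AHP1 was the 1 gene of the 10 among them. None of the 10 was at least 2-fold higher there, against 6.76% of all genes. In -GLU, AHP1 with the drug was at 564, 1561 and 3500 CPM, a range that holds the 902 CPM without it. Harvest and drug differ together between these libraries and cannot be told apart.

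In -GLU, 3 of 10 genes were at least 2-fold higher with the drug than without it after the fast harvest, CTT1 (log2 ratio 1.23), GRX2 (1.07) and AHP1 (1.06), against 17.1% of 5482 genes, and 0 were at least 2-fold lower, against 2.39%. That these 3 reached 2-fold rests on -GLU footprint replicate 3. The mean of replicates 1 and 2 over the same library gave log2 ratios of 0.45 for CTT1, 0.75 for GRX2 and 0.24 for AHP1, and 0 of 10 genes at least 2-fold higher, against 11.9% of 5442 genes. In the fast library without drug, CTT1 (162 CPM of total counts) and GRX2 (621 CPM) still lay below all 3 -GLU libraries with drug. The -GLU library without drug that is not titled fast was set against the fast one as well. GPX1 was at 4.35 CPM in it and at 30.2 CPM in the fast one, a log2 ratio of -2.80 (-4.13 to -1.73) from 7 and 259 counts. It was the 1 gene of the 10 at least 2-fold lower, against 12.6% of 5315 genes, and 0 were at least 2-fold higher, against 8.86%. AHP1 was at 1546 CPM in it, CTT1 at 258 CPM and GRX2 at 365 CPM, all under 2-fold from the fast library.

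**Figure D5:**
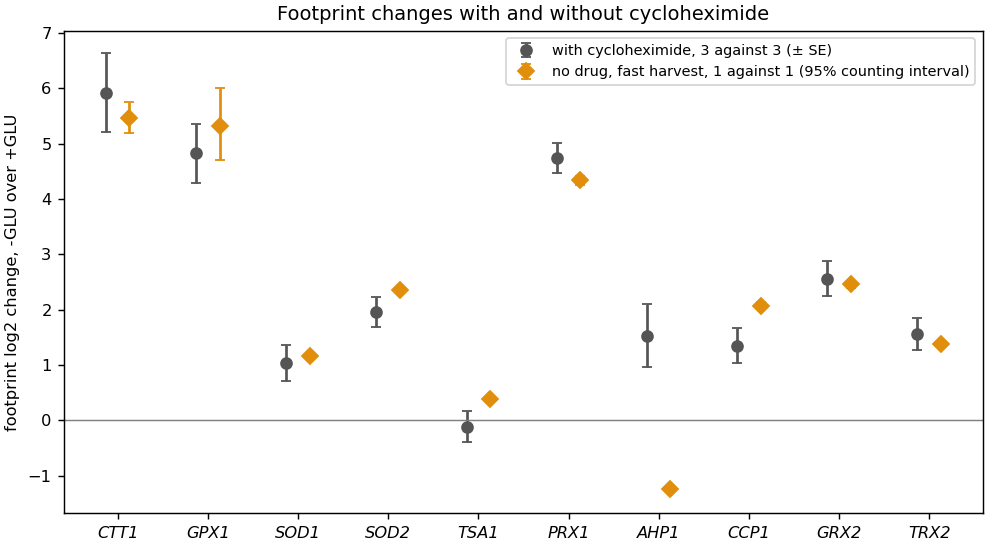
Footprint log2 change, -GLU over +GLU, of each gene with cycloheximide (grey, 3 against 3 libraries, bars of ± 1 SE) and without it after the fast harvest (orange, 1 against 1, bars of the 95% counting interval, hidden by the symbol where narrow). CTT1 lies at 5.92 with the drug and 5.47 without it, and AHP1 at 1.53 with the drug and -1.24 without it.

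The genes that supply, repair or control these enzymes were counted in lists. The background to these counts is the share of all genes tested, of which 30.4% rose and 30.2% fell in RNA and 33.8% rose and 31.0% fell in footprints, with median log2 changes of 0.01 and 0.10. Of 5 other catalase and peroxidase genes, 4 rose and 1 fell in RNA (median log2 change 1.28), and 4 rose and 0 fell in footprints (1.79), with CTA1 and HYR1 the highest in RNA and CTA1 and TSA2 in footprints. DOT5, a nuclear peroxiredoxin, rose by 1.22 ± 0.25 in RNA and 0.81 ± 0.16 in footprints. CTA1 (4.77 ± 0.53) and TSA2 (2.98 ± 0.73) also rose in efficiency, though the +GLU footprints of CTA1 rest on few counts. Of 14 genes of the thioredoxin and glutathione systems, 4 rose and 2 fell in RNA (median 0.05), where the number that rose is near the background, and 7 rose and 5 fell in footprints (median 0.44). TRX3, the mitochondrial thioredoxin, rose by 1.50 ± 0.34 in RNA and 2.31 ± 0.23 in footprints. Among those that fell in footprints were TRR1, the cytosolic thioredoxin reductase (-1.35 ± 0.22), and GSH1, which makes the first step of glutathione synthesis (-1.05 ± 0.37), and GRX3, a monothiol glutaredoxin, fell in RNA (-1.09 ± 0.24). Of 14 genes of repair and detoxification, 7 rose and 2 fell in RNA (median 0.83), and 9 rose and 3 fell in footprints (median 1.91). They were led in RNA by the glutathione transferase genes ECM4 (4.81 ± 0.47) and GTT1 (3.25 ± 0.30) and in footprints by ECM4 (4.96 ± 0.54) and SRX1 (3.49 ± 0.42), the sulfiredoxin that reactivates peroxiredoxins. OYE2, an NADPH oxidoreductase, fell by 1.82 ± 0.27 in RNA and by 2.76 ± 0.34 in footprints, and ATR1, a multidrug transporter, by 1.19 ± 0.21 and 1.54 ± 0.39.

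The list on metal handling, drawn up for the metal supply of the dismutases, held 10 genes, of which 8 were tested. In RNA 2 rose and 1 fell (median 0.10), and in footprints 3 rose and 1 fell (median 0.92), so the numbers that rose are near the shares of 30.4% and 33.8% among all genes. CCS1, the copper chaperone of SOD1, fell by 1.83 ± 0.27 in RNA and by 1.61 ± 0.23 in footprints. CTR1, the copper transporter of the plasma membrane, rose by 1.90 ± 0.42 in RNA and by 2.37 ± 0.69 in footprints, and its -GLU footprints ranged widely, at 897, 282 and 109 CPM. SMF2, a manganese transporter, rose by 1.17 ± 0.24 in RNA, and MTM1, a mitochondrial carrier needed for active SOD2, by 1.82 ± 0.26 in footprints. CUP1-1 and CUP1-2, near-identical copies, were not tested. Of 12 genes of NADPH supply, 6 rose and 3 fell in RNA (median 0.74), and 5 rose and 4 fell in footprints (median -0.37), the footprint counts again being near the background. IDP2, the cytosolic isocitrate dehydrogenase, rose by 7.30 ± 0.57 in RNA and 10.10 ± 0.87 in footprints. SOL4, of the pentose phosphate pathway, rose by 5.50 ± 0.64 and 7.10 ± 0.82. GND1, the main 6-phosphogluconate dehydrogenase, fell by 3.48 ± 0.38 and 4.48 ± 0.28, and TKL1, the main transketolase, by 2.12 ± 0.30 and 4.59 ± 0.40. Of 8 regulators, 3 rose and 0 fell in RNA (median 0.64), and 3 rose and 1 fell in footprints (median 0.47), with numbers that rose near those shares too. GIS1, a zinc-finger factor of the nutrient response, rose by 2.22 ± 0.28 in RNA and 1.97 ± 0.19 in footprints, and YAP1 by 0.88 ± 0.23 and 1.07 ± 0.20. YBP1, which binds Yap1, rose by 0.83 ± 0.28 in RNA. SKN7, a partner of Yap1, was at -0.84 ± 0.27 in footprints, the 1 regulator that fell. MSN2 passed in neither assay, at 0.19 ± 0.28 in RNA and -0.09 ± 0.16 in footprints, and MSN4 rose by 0.60 ± 0.18 in footprints. Of the 35 listed genes called in RNA, 21 were also called in the cellulose libraries. The 14 lost calls include TSA2, GPX2, TRX1, GRX1, GRX3, SRX1, SMF2, CTR1, YAP1 and YBP1, all with the sign unchanged. Without -GLU replicate 3, 32 of the 35 were still called in RNA and all 45 in footprints.

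The genes whose log2 CPM most resembled that of 4 members over the 12 libraries were listed as a description, since the points share their glucose state and assay. CTT1 was nearest to CRG1, DCI1 and YLR177W (Pearson r of 0.98 each). SOD1 was nearest to PBP4, TRX2 and SMX3 (0.97, 0.97 and 0.96). SOD2 was nearest to LSC1, POR1 and QCR2 (1.00, 0.99 and 0.99), and TSA1 to ABF2, ACB1 and CDC26 (0.97 each).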

How the data were processed

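Ribosome footprints and poly(A) RNA were sequenced; libraries were grouped by their titles, and the 3 footprint libraries without cycloheximide are known as such from titles and descriptions, while their treatment text names the drug. The authors deposited counts per gene, not normalised, and RPKM values. Values of -GLU RNA replicates 1 and 2, as deposited, are called expected counts because 1 entry in each was not whole; that gene, YPR203W, was left out everywhere, so no rounding was needed. RPKM and counts together gave a counted region of the coding length less 24 nt in 12 libraries and plus 2 nt in +GLU RNA 1, -GLU RNA 3 and -GLU footprints 3, which raises short genes slightly in those. Aligner, build and strand use: not given in the sources used here. No label calls the replicates separate cultures, and the p-values therefore reflect sample-to-sample spread that could be technical.

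Names (5698 of 5703 genes) and upstream windows come from R64. No 28-nt stretch of the 10 coding sequences occurs in another. Changes were tested with edgeR 4.0.16 (quasi-likelihood F test, TMM factors, filterByExpr with a minimum count of 10, Benjamini-Hochberg adjustment over all genes, 0.05), RNA and footprints over 6 libraries each and efficiency over 12 as the interaction of assay and glucose. CPM values are normalised within each fit, except where CPM of total counts is named. The SE is the log2 change divided by the square root of F and is approximate. Within-library ratios had 0.5 added to counts. DESeq2 1.42.0, other scalings and left-out libraries were alternatives. The fits were tested on simulated data. Per library, 3 counts equal 0.0981 to 1.86 CPM. Deviations of same-numbered libraries correlated above 0.1 in every pair for footprints and RNA in -GLU, but not in +GLU nor between glucose states. The number was not a term; fits with it were alternatives. The 10 genes, the lists and the motifs were chosen with earlier results of these data known. Named from each list were the 2 highest and the 2 lowest changes that passed, in RNA and in footprints, and the genes of the ratio pairs. MSN2, outside that rule, was named after its values were seen.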

Additional observations from a re-analysis of the deposited data

Results flagged for a closer look

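CTT1 and GPX1 were marked because their change without glucose differed between footprints and RNA by the test of the difference itself. The footprint log2 change exceeded the RNA change by 3.78 for CTT1 and by 2.08 for GPX1. In +GLU libraries the footprints of these 2 genes rest on 88 and 19 counts. Groups of 3 libraries or 1 were not tested for a single library far from the others.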

How the results depend on the processing

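The number of the 10 genes called in RNA was 7, and 4 with cellulose libraries alone; leaving out 1 library gave 6 to 7. In footprints it was 9, and 7 to 9 when 1 library was left out. In efficiency it was 2; it was 1 with median-ratio size factors and 1 with cellulose RNA, 0 to 2 when 1 library was left out, 4 (CTT1, GPX1, PRX1 and GRX2) without -GLU replicate 3 of both assays, and 5 (with TRX2) without the 3 libraries counted over a longer region, a choice made after seeing the data. Efficiency calls over all genes were 756, but 145 with cellulose RNA, 2161 without the longer-region libraries and 1378 without -GLU replicate 3 of both assays; leaving out 1 library gave 273 to 1034. The cause was not tested. Signs turned for log2 values that were not called to begin with. When 1 library was left out, the RNA change of TSA1 ran from -0.12 to 0.16, the efficiency change from -1.52 to 0.27 for AHP1, from -0.15 to 0.61 for SOD1 and from -0.44 to 0.044 for TSA1, efficiency from -0.12 to 0.32 for CCP1 in +GLU and from -0.062 to 1.04 for CTT1 in -GLU, and the ratio from -0.11 to 0.68 for CCP1 to SOD1 in footprints and from -0.19 to 0.054 for GRX1 to GRX2 in RNA. With cellulose RNA the efficiency change was -0.46 for CCP1, -0.60 for SOD1 and -0.27 for TRX2. With total counts, TSA1 was at 0.33 in footprints and 0.13 in efficiency change, and efficiency was -0.73 for CCP1 and -0.20 for PRX1 in +GLU and -0.030 for CCP1 in -GLU. TSA1 was at 0.015 in footprints with upper quartile factors, at -0.28 in RNA and 0.064 in efficiency change without the longer-region libraries, and at 0.12 in efficiency change without -GLU replicate 3 of both assays. With the replicate number as a block, 8 genes were called in RNA (TRX2 was added), 8 in footprints (AHP1 was lost), 2 in efficiency change, 7 in efficiency in -GLU (AHP1 was added) and 8 in +GLU (SOD1 was added); same-numbered -GLU and +GLU libraries deviated together by correlations of -0.15 to -0.01 in RNA and 0.05 to 0.07 in footprints, and footprints and RNA by 0.38 to 0.60 in -GLU and 0.07 to 0.13 in +GLU. With the number as a block within each glucose state, added after seeing the data, calls were 2 in efficiency change (1431 over all genes, against 756), 7 in -GLU and 9 in +GLU, against 6 and 7 without it. SOD1 (1.11) and PRX1 (0.60) were the ones added in +GLU. Of 10 genes, 3 were at least 2-fold higher in -GLU with the drug than without it, and 0 to 3 when 1 library was left out. Of 820 results for single members under alternatives, 727 kept their direction and side of the threshold. The share of higher calls among all genes in footprints was 52.2%, and 66.8% with total counts. CTT1 and GPX1 footprints in +GLU rest on 88 and 19 counts.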
